A study of Mus musculus with 15 samples.

Results

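Transcripts of 6 mouse livers were compared, 3 that had received a short hairpin RNA against Gpnmb and 3 that had received a scrambled hairpin, of 15 livers in the series. These are the libraries of the deposited hairpin table, and each gene in it was tested from its raw counts. Both groups were male C57BL/6J mice kept for 16 weeks on the FPC NASH diet with sugar water, a regimen used as a model of non-alcoholic steatohepatitis (NASH). Both hairpins were carried by an adeno-associated virus of serotype 8 (AAV8-H1-shRNA) under the H1 promoter, so the scramble livers also carried a vector and a hairpin. H1 is read by RNA polymerase III in most cell types, so the promoter itself does not limit the hairpin to one liver cell type. The sources used here give no age of the mice, vector dose, time of injection, hairpin sequence or number of hairpins. The other 9 livers received a GFP or Activin A vector with a TBG promoter, a hepatocyte promoter, on the same diet (GFP and Activin A) or on standard chow (GFP), 3 in each group.

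Gpnmb encodes a transmembrane glycoprotein that is abundant in macrophages loaded with lipid and in osteoclasts, and its outer part can be shed. In fatty and inflamed liver, blood monocytes enter the tissue and take on a lipid-associated macrophage state marked by Trem2, Cd9, Spp1 and Gpnmb. Such macrophages lie near fibrotic areas, where hepatic stellate cells lay down collagen. Hepatocytes make up most of the tissue mass and contribute most of the RNA in a bulk liver library.

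The scramble libraries held 22090514, 20435244 and 23467867 counts and the hairpin libraries 16121073, 18736403 and 18593293, ranges that do not overlap. Albumin took 4.80% to 5.58% of the counts in these 6 libraries. Genes with at least 1 count numbered 21469 to 21796 in the scramble and 19470 to 20054 in the hairpin libraries. Mitochondrial ribosomal RNA took 0.0489% to 0.0579% of counts in the scramble and 0.0969% to 0.134% in the hairpin libraries. In GFP livers on the same diet it took 0.08445% to 0.124%, and genes with at least 1 count numbered 20103 to 20690. In both measures the scramble libraries lay outside the range of every other group of the series. Summed globin transcripts, a measure of blood in the tissue, stood at 61.2 to 94.3 CPM (counts scaled to library size) in the scramble and 13.5 to 34.1 CPM in the hairpin livers. The part of depth, mitochondrial RNA and blood content in the differences below was not tested. No library stood with the other group: the root mean square log2 distance was 0.221 to 0.348 within groups and 0.408 to 0.532 between them. The labels do not state that each library is 1 mouse, so the p-values here reflect only library-to-library spread, part of which may be technical.

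Gpnmb itself (ENSMUSG00000029816, GRCm38 chr6:49036546-49070929, plus strand) was measured first, as the target of the hairpin. It stood at 26.2, 36.4 and 32.8 CPM in the scramble and 1.45, 1.26 and 3.30 CPM in the hairpin livers, and the groups did not overlap. The log2 fold change of hairpin over scramble was -3.95 ± 0.26 (SE, n = 3 per group; edgeR quasi-likelihood test, Benjamini-Hochberg adjusted p = 1.15e-05), a 15.5-fold difference. Over the 14 alternative settings tried, leaving out each library included, this log2 fold change ran from -4.52 to -3.69. The authors' deposited table gave -3.96. For comparison, Gpnmb stood at 30.4 ± 8.69 CPM (SD, n = 3) in GFP livers on the NASH diet and 0.292 ± 0.172 CPM in GFP livers on chow, from counts of all 3 deposited tables scaled together. In Activin A livers on the NASH diet, which received no hairpin, it stood at 4.01 ± 1.45 CPM (SD, n = 3). Other macrophage genes were also lower in the hairpin livers, as given below, and their part in the fall of Gpnmb was not tested. Of 14 tested genes listed as partners, relatives, regulators or sheddases of Gpnmb, 2 rose and none fell in the edgeR fit, where 12.2% of all genes tested were higher. These were Sdc4, a heparan sulfate proteoglycan of the cell surface (0.63 ± 0.09), and Egfr, the epidermal growth factor receptor, which hepatocytes carry (1.21 ± 0.19). Mitf, Tfeb and Tfe3, transcription factors of lysosomal genes, had log2 fold changes of 0.05, -0.24 and 0.25 and were not called. The count of lowered members was 1 or 2 in 6 alternative settings.

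**Figure D1:**
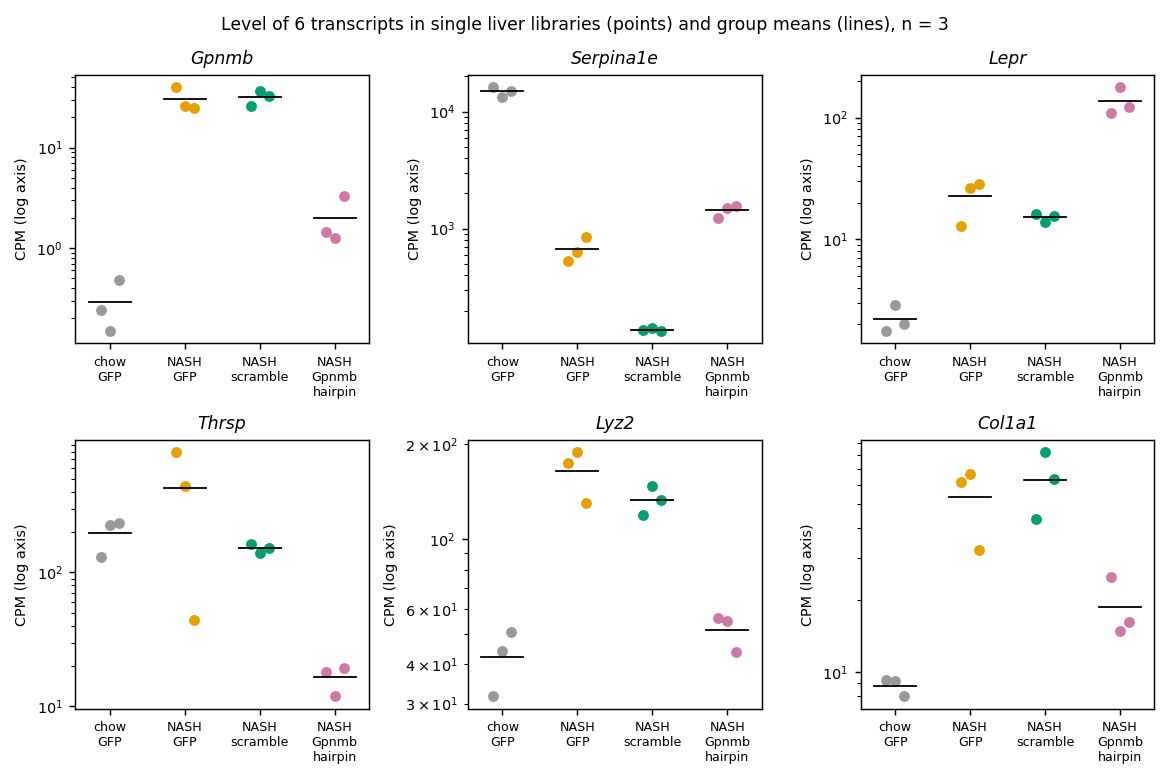
Levels of Gpnmb, Serpina1e, Lepr, Thrsp, Lyz2 and Col1a1 in CPM on log axes, with 1 point per library and a line at the mean of 3 libraries, for chow GFP, NASH GFP, NASH scramble and NASH Gpnmb hairpin livers. In all 6 panels the hairpin points lie apart from the scramble points: Gpnmb, Thrsp, Lyz2 and Col1a1 are lower, and Serpina1e and Lepr higher.

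Across the liver transcriptome the hairpin and scramble groups differed widely. Of 14845 genes tested, 1813 (12.2%) were higher and 1788 (12%) lower under the Gpnmb hairpin at an edgeR adjusted p under 0.05, 24.3% in either direction. Each count of list members given below stands beside these shares of all genes. The median log2 fold change was 0 over all genes tested, 0.43 over the genes called higher and -0.74 over those called lower. Calls of at least 2-fold were fewer among higher genes (199, 1.34%) than among lower genes (615, 4.14%). The values of the groups did not overlap for 6026 genes, 40.6% of those tested. The authors' deposited table calls 1677 genes higher and 1678 lower, and 3220 of the 3601 genes called here were also called there with the same sign. The split depends on scaling: with library size alone 1006 genes were higher and 2464 lower, so that 29.0% of calls were higher rather than 50.3%, and the median of all genes moved by -0.11. Counts fell by more than 1.5 times without scramble replicate 2 (1092 higher, 1122 lower) or scramble replicate 3 (929 higher, 994 lower), and in a fit of all 15 libraries (835 higher, 1045 lower).

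**Figure D2:**
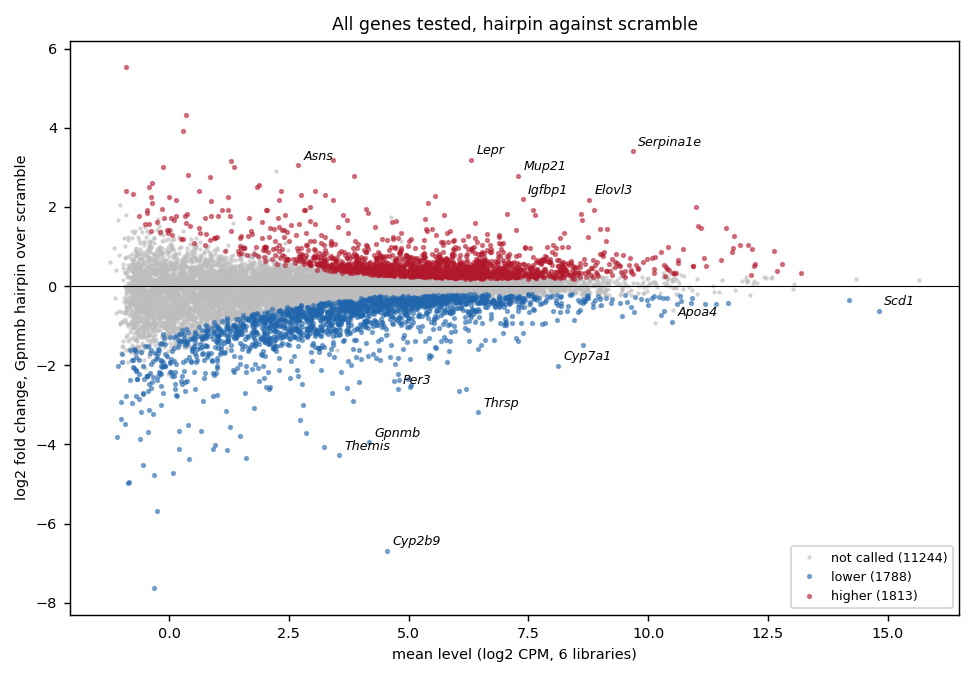
Log2 fold change of hairpin over scramble (vertical axis) against the mean level of a gene in the 6 libraries (log2 CPM, horizontal axis), 1 point per tested gene. The 1813 red genes were called higher and the 1788 blue genes lower, and the largest drops lie among genes of low level, apart from genes such as Cyp2b9 and Thrsp.

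Macrophage transcripts were lower in the hairpin livers. Of 23 tested lipid-associated macrophage markers (24 listed), 18 fell, 1 rose and 4 were not called, with a median log2 fold change of -1.10 against 0 for all genes and 12% of genes called lower. Of 18 monocyte and macrophage core markers, 16 fell and none rose, with a median of -1.08. These lists were written with earlier results of these data known. In bulk liver, fewer macrophages and less RNA per macrophage cannot be told apart.

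Trem2, a lipid-sensing receptor of these macrophages, stood at 7.59, 9.79 and 9.19 CPM in the scramble and 1.03, 2.05 and 2.06 CPM in the hairpin livers, without overlap (-2.33 ± 0.25, edgeR adjusted p = 0.000177). Itgax, which encodes the integrin CD11c, stood at 8.56, 13.8 and 9.86 CPM in the scramble and 2.12, 1.58 and 2.00 CPM in the hairpin livers (-2.47 ± 0.23, edgeR adjusted p = 8.58e-05). Both were lower in each hairpin library than in any scramble library. Clec7a, the beta-glucan receptor dectin-1, changed by -1.85 ± 0.16, Lgals1 (galectin-1) by -1.77 ± 0.13 and Mmp12, the macrophage elastase, by -2.91 ± 0.36. The fatty acid binding protein gene Fabp4 changed by -1.77 ± 0.25 and Lgals3 (galectin-3) by -2.42 ± 0.26. Spp1, Cd9, Lpl and Ctsl were not called (-0.85 ± 0.30, -0.02 ± 0.13, 0.07 ± 0.15 and 0.21 ± 0.08). Fabp5, another fatty acid binding protein, went the other way (0.87 ± 0.25, edgeR adjusted p = 0.0295), but its values of 17.2, 22.5 and 18.1 CPM (scramble) and 43.3, 41.9 and 18.8 CPM (hairpin) overlapped, and the call was lost in 7 alternative settings, among them without scramble replicate 1 or 3 and without hairpin replicate 1 or 2.

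Lyz2, lysozyme of monocytes, macrophages and neutrophils, stood at 119, 147 and 133 CPM in the scramble and 56.0, 54.9 and 43.8 CPM in the hairpin livers (-1.35 ± 0.11, edgeR adjusted p = 3.72e-05). Ccr2, the chemokine receptor that brings monocytes out of the bone marrow, stood at 5.87, 7.98 and 8.16 CPM in the scramble and 1.15, 2.05 and 1.73 CPM in the hairpin livers (-2.12 ± 0.25, edgeR adjusted p = 0.000284). Ptprc, which encodes the pan-leukocyte marker CD45, stood at 22.2, 26.1 and 24.6 CPM in the scramble and 12.5, 11.3 and 11.6 CPM in the hairpin livers (-1.02 ± 0.10, edgeR adjusted p = 0.000123). For these genes all hairpin values lay below all scramble values. Csf1r, the receptor that macrophages need to survive, changed least of the called members (-0.72 ± 0.12), and Itgam and Ly6c2 missed the threshold (-1.26 ± 0.48 and -0.91 ± 0.51). The summed level of the core list was 529 to 659 CPM in the scramble and 245 to 325 CPM in the hairpin livers, beside 592 to 687 CPM in GFP livers on the same diet and 179 to 191 CPM on chow.

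Kupffer cells are the macrophages resident in the liver. Of 13 of their markers 6 fell and 1 rose (median -0.75). The complement genes C1qb (-0.97 ± 0.11) and C1qc (-0.84 ± 0.12), Cd5l, a secreted scavenger protein (-0.98 ± 0.11) and Cd207, which encodes langerin (-1.46 ± 0.21), were lower. Clec4f and Timd4, which mark resident Kupffer cells more narrowly, were not called (-0.24 ± 0.11 and 0.08 ± 0.26), nor was Vsig4 (-0.30 ± 0.10). Cd163, a receptor for haemoglobin bound to haptoglobin, was higher (0.66 ± 0.18, edgeR adjusted p = 0.0217), a call that was lost without scramble replicate 3, without hairpin replicate 1 or 2, and in the fit of all 15 libraries. The list's summed level was 820 to 844 CPM in the scramble and 528 to 636 CPM in the hairpin livers.

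Genes of antigen presentation on MHC class II fell, and no lymphocyte marker that could be tested was called. Of 11 tested dendritic cell and MHC class II genes 7 fell and none rose, with a median of -1.27. Cd74, the invariant chain that guides class II molecules, stood at 162, 254 and 209.9 CPM in the scramble and 83.7, 87.7 and 76.3 CPM in the hairpin livers (-1.31 ± 0.14, edgeR adjusted p = 0.000159). H2-Ab1, a class II chain, stood at 53.6, 84.9 and 66.0 CPM in the scramble and 20.1, 26.0 and 21.7 CPM in the hairpin livers (-1.57 ± 0.16, edgeR adjusted p = 0.00012). Neither gene overlapped between the groups. Ciita, the master regulator of class II genes, changed by -1.38 ± 0.28, while the dendritic cell markers Flt3, Clec9a, Xcr1 and Siglech were not called (-0.67 ± 0.59, -0.52 ± 0.20, -0.16 ± 0.58 and -0.22 ± 0.52). No call was made in 5 tested of 14 listed T and NK cell markers, nor in 7 tested of 10 B and plasma cell markers, whose summed levels were 8.03 to 10.8 and 18.1 to 20.1 CPM in the scramble and 4.30 to 7.63 and 14.2 to 19.0 CPM in the hairpin livers. The ranges of the T and NK cell list did not overlap, while those of the B and plasma cell list did. Most T and NK cell markers had too few counts to be tested, so the absence of calls does not show that these cells were unchanged. In each list 0 or 1 member was called lower in the 14 alternative settings. Of neutrophil markers only 2 of 10 listed could be tested, and Ly6g, Mpo and Ngp are not analysed here. Of the 2, Csf3r was called lower (log2 fold change -0.96) and S100a9 was not called. The call of Csf3r was lost in 4 alternative settings, among them without scramble replicate 2 and without hairpin replicate 2 or 3.

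Interferon-stimulated genes, which cells switch on against viruses, were lower in the hairpin livers. Of 28 members 20 fell, none rose, and the median was -0.78. Ifit3 stood at 12.6, 18.6 and 15.2 CPM in the scramble and 7.76, 5.84 and 5.90 CPM in the hairpin livers (-1.23 ± 0.17, edgeR adjusted p = 0.000822), and the groups did not overlap. The antiviral genes Ifit2 (-1.12 ± 0.15), Oasl1 (-1.20 ± 0.20) and Oas1a (-1.15 ± 0.19) and the chemokine gene Cxcl10 (-1.31 ± 0.27) were lower too. Stat2, Irf1, Bst2 and Mx2, also members, had log2 fold changes between -0.11 and 0.03 and were not called.

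Of 22 tested cytokine, chemokine and adhesion genes 13 fell and 1 rose, with a median of -0.92. The macrophage chemokine gene Ccl6 stood at 15.9, 18.4 and 16.9 CPM in the scramble and 7.45, 6.79 and 5.52 CPM in the hairpin livers (-1.35 ± 0.14, edgeR adjusted p = 0.000122). Ccl2, the ligand of Ccr2, changed by -1.89 ± 0.38, and Vcam1, an adhesion molecule of inflamed endothelium, by -0.71 ± 0.10. Tnf was not called (-0.30 ± 0.44). Cxcl12, a chemokine that stromal and sinusoidal cells make, was the member that rose (0.32 ± 0.07, edgeR adjusted p = 0.00651). The count of lowered members was 8 without scramble replicate 2 and 8 at a minimum count of 50.

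Extracellular matrix transcripts were lower under the Gpnmb hairpin. Of 38 matrix genes 24 fell, 1 rose and 13 were not called, with a median of -0.76. Col1a1, a chain of type I collagen, the main fibre of scar tissue, stood at 43.6, 82.6 and 63.7 CPM in the scramble and 24.9, 14.8 and 16.2 CPM in the hairpin livers. All hairpin values lay below all scramble values, and the log2 fold change was -1.74 ± 0.23 (edgeR adjusted p = 0.00065). Col3a1, which forms type III collagen, stood at 98.6, 159 and 129 CPM in the scramble and 62.5, 33.0 and 40.2 CPM in the hairpin livers (-1.49 ± 0.22, edgeR adjusted p = 0.00107). Among enzymes that cross-link collagen, Lox changed by -1.57 ± 0.35 and Loxl1 by -1.30 ± 0.23. Sparc, a collagen-binding matricellular protein, changed by -1.07 ± 0.12 and the basement membrane chain Col4a1 by -0.78 ± 0.16. Fn1, fibronectin, which hepatocytes secrete into plasma, was the member that rose: it stood at 1576, 1549 and 1559.7 CPM in the scramble and 2323, 2090.1 and 2091 CPM in the hairpin livers (0.50 ± 0.08, edgeR adjusted p = 0.00148, but 0.0749 in the fit of all 15 libraries). With Fn1 included, the summed level of the list overlapped between the groups, 3612 to 3939 CPM in the scramble and 3776 to 4084 CPM in the hairpin livers.

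Of 17 tested matrix proteases and protease inhibitors 9 fell and 1 rose (median -0.92), and 5 fell without scramble replicate 3 or without hairpin replicate 2. Adam8, a metalloprotease of leukocytes, stood at 3.53, 3.70 and 3.41 CPM in the scramble and 0.182, 0.579 and 0.379 CPM in the hairpin livers (-3.15 ± 0.36, edgeR adjusted p = 0.000262). Timp1, an inhibitor of metalloproteases, was at 1.10, 2.07 and 2.06 CPM in the scramble and at 0.182, 0 and 0.108 CPM in the hairpin livers (-4.12 ± 0.65, edgeR adjusted p = 0.00152). Mmp14, a membrane-bound metalloprotease, rose by 0.36 on the log2 scale (edgeR adjusted p = 0.0183), a call lost in 6 alternative settings, among them without scramble replicate 1 or 3 and without hairpin replicate 1 or 2.

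Stellate cells and myofibroblasts are the main source of scar collagen, and 8 of 18 of their markers fell, with none higher and a median of -0.36. Acta2, smooth muscle actin of activated cells, stood at 4.50, 5.95 and 5.47 CPM in the scramble and 1.94, 2.16 and 1.78 CPM in the hairpin livers (-1.41 ± 0.22, edgeR adjusted p = 0.0013). Lrat, the vitamin A storing enzyme of quiescent cells, stood at 25.3, 27.8 and 28.6 CPM in the scramble and 13.3, 12. and 17.5 CPM in the hairpin livers (-0.91 ± 0.13, edgeR adjusted p = 0.00102). Markers of both states of the cell, activated and quiescent, were among the lowered genes. Pdgfrb changed by -0.64 ± 0.14, whereas Des (-0.30 ± 0.22) and Reln (0.04 ± 0.07) were not called. The count was 5 without scramble replicate 2 or 3 and in the fit of all 15 libraries. Summed over the list, levels were 470 to 494 CPM in the scramble and 401 to 415 CPM in the hairpin livers. GFP livers on the same diet stood at 404 to 467 CPM, which overlaps the hairpin and not the scramble range. That difference between scramble and GFP livers was not tested.

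Of 19 sinusoidal endothelial markers 7 fell and none rose (median -0.27). These changes were small, as for Pecam1, which encodes CD31 (-0.42 ± 0.11). The largest was in Vwf, von Willebrand factor, more typical of larger vessels (-0.80 ± 0.18, edgeR adjusted p = 0.0102). Only 2 of the 7 were called without scramble replicate 2, without scramble replicate 3 or without hairpin replicate 2, and Pecam1 was not among them in any of these 3 fits. In the fit of all 15 libraries 3 were called. The list summed to 675 to 779 CPM in the scramble and 503 to 647 CPM in the hairpin livers. In GFP livers on the same diet it summed to 485 to 637 CPM, which overlaps the hairpin and not the scramble range. The difference of this list between scramble and GFP livers was not tested. None of 13 tested biliary markers was called by edgeR, among them Krt19 (0.02 ± 0.38) and Sox9 (0.48 ± 0.27), and their median of -0.16 turned to 0.39 without scramble replicate 2. Without scramble replicate 1, 3 of them were called lower. Without hairpin replicate 3, 1 was called higher and 1 lower, and 1 was called lower without hairpin replicate 1, with no filter, in DESeq2 and in the fit of all 15 libraries.

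Genes of activin and transforming growth factor beta (TGF-beta) signalling, the pathway that drives stellate cells to make collagen, were called in both directions. Among the ligands and among the receptors and inhibitors the calls were few, near the 12.2% higher and 12% lower of all genes tested. Of 10 tested ligands 2 fell and 1 rose, or 2 rose without hairpin replicate 2 or 3. Inhba, which encodes the subunit of Activin A, stood at 4.76, 6.04 and 5.86 CPM in the scramble and 10.4, 12. and 8.65 CPM in the hairpin livers, without overlap (0.92 ± 0.17, edgeR adjusted p = 0.00325). Inhbe, the activin E subunit made by hepatocytes, stood at 148, 178 and 163 CPM in the scramble and 93.1, 88.7 and 60.9 CPM in the hairpin livers (-0.99 ± 0.14, edgeR adjusted p = 0.000802). Tgfb1, a product of macrophages and other cells, stood at 13.8, 19.5 and 16.5 CPM in the scramble and 11.4, 9.68 and 7.25 CPM in the hairpin livers (-0.79 ± 0.18, edgeR adjusted p = 0.0085). Inhba was thus higher, and Inhbe and Tgfb1 lower, in each hairpin library than in any scramble library. Among 14 receptors and inhibitors the receptor genes Tgfbr2 (-0.67 ± 0.13) and Acvr1b (-0.56 ± 0.09, not called in the fit of all 15 libraries) fell, while the activin antagonist Fst was not called (0.77 ± 0.29). The member that rose, Skil (0.34 ± 0.10), lost its call in 8 alternative settings, among them without scramble replicate 1 or 3 and without each hairpin replicate. Of 13 SMAD proteins and target genes 5 rose and 3 fell. The target Tgfbi changed by -0.68 ± 0.10 and Id2, a target of bone morphogenetic proteins, by 0.77 ± 0.15. The 5 higher members were 1 to 3 in 10 alternative settings, among them without any one of the scramble libraries and without hairpin replicate 1 or 2, and the 3 lower members were 1 without scramble replicate 2 or 3.

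Acute phase proteins, which hepatocytes secrete in inflammation, split into lower and higher members. Of 23 tested, 11 fell and 7 rose (median -0.15). Lcn2, lipocalin-2, which binds bacterial iron carriers, stood at 31.0, 52.0 and 40.8 CPM in the scramble and 8.97, 8.0 and 6.00 CPM in the hairpin livers (-2.41 ± 0.20, edgeR adjusted p = 3.82e-05). The orosomucoid genes Orm2 (-2.58 ± 0.25) and Orm3 (-3.71 ± 0.35) and the serum amyloid genes Saa1 (-1.08 ± 0.16) and Saa2 (-1.48 ± 0.20) were lower, though reads of these near-identical copies may be split unevenly. Hp, haptoglobin, among the most abundant called genes, stood at 2523, 2653 and 2664 CPM in the scramble and 1782, 1858 and 1963 CPM in the hairpin livers (-0.46 ± 0.08, edgeR adjusted p = 0.0021). In the other direction, the fibrinogen chains Fga (0.86 ± 0.09), Fgb (0.65 ± 0.09) and Fgg (0.72 ± 0.09) and Itih3 (0.69 ± 0.08) rose. Fga stood at 2631, 2114 and 2384 CPM in the scramble and 4368, 4184 and 4181 CPM in the hairpin livers and did not overlap. In the fit of all 15 libraries 4 members were called lower rather than 11, and Hp, Saa1 and Saa2, at adjusted p of 0.0754, 0.439 and 0.376, were not among them.

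Complement and coagulation factors, also products of hepatocytes, rose in 11 of 26 tested genes and fell in none (median 0.18). Of the terminal complement genes, C8b stood at 66.4, 52.2 and 53.7 CPM in the scramble and 189.9, 188 and 216 CPM in the hairpin livers (1.81 ± 0.10, edgeR adjusted p = 5.37e-06) and C6 at 169, 163 and 163 CPM in the scramble and 307, 325 and 362 CPM in the hairpin livers (1.03 ± 0.08, edgeR adjusted p = 2.19e-05). Neither gene overlapped between the groups. The clotting factors F2, F7, F9 and F10 were not called, with log2 fold changes of 0.03 to 0.16. The count of 11 was 5 without scramble replicate 2, 4 without scramble replicate 3, 7 without hairpin replicate 3 and 5 in the fit of all 15 libraries, and 1 member was called lower with library size alone, at a minimum count of 50 and in DESeq2.

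Of 18 hepatocyte identity genes 6 rose and 2 fell (median 0.16). The liver transcription factor gene Hnf4a stood at 569, 461 and 499.5 CPM in the scramble and 791, 905 and 882 CPM in the hairpin livers (0.78 ± 0.09, edgeR adjusted p = 0.000322), and Foxa1 changed by 0.76 ± 0.09. Cebpa, another hepatocyte transcription factor, went down (-0.47 ± 0.07, edgeR adjusted p = 0.00107). Alb, albumin, was not called (0.16 ± 0.11). The 2 lower members were 1 without scramble replicate 1 or 3 or hairpin replicate 2. The markers summed to 61820 to 72568 CPM in the scramble and 71164 to 76837 CPM in the hairpin livers, which overlap.

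Liver genes that male mice express more than female mice, under the pulsed growth hormone of males, were higher in the hairpin livers. Of 20 such genes 17 rose, 1 fell and 2 were not called, against 12.2% of all genes higher. Their median log2 fold change of 1.11 was the highest of the lists shown in the plot of gene lists. Serpina1e, an alpha-1-antitrypsin gene, had the smallest p of all genes: it stood at 135, 142 and 134 CPM in the scramble and 1239, 1500.4 and 1561 CPM in the hairpin livers (3.41 ± 0.10, edgeR adjusted p = 5.26e-08). The scramble livers were also low beside the GFP livers on the same diet, which held 669 ± 161 CPM of Serpina1e (SD, n = 3), and chow livers held 14827 ± 1483 CPM. That difference between scramble and GFP livers was not tested. The major urinary protein gene Mup21, a pheromone carrier, stood at 45.3, 31.0 and 39.1 CPM in the scramble and 172, 269 and 342 CPM in the hairpin livers (2.79 ± 0.22, edgeR adjusted p = 3.72e-05). Mup20 (1.46 ± 0.19) and Mup3 (1.05 ± 0.19) were higher as well. Reads of Mup and Serpina1 copies may be shared between near-identical genes, so the member they come from is uncertain.

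Beyond these families, Elovl3, a fatty acid elongase, stood at 203, 110.1 and 143 CPM in the scramble and 652, 693 and 683 CPM in the hairpin livers (2.18 ± 0.18, edgeR adjusted p = 3.81e-05). Cyp7b1, an oxysterol hydroxylase, stood at 85.9, 70.7 and 76.3 CPM in the scramble and 221, 319 and 331 CPM in the hairpin livers (1.93 ± 0.14, edgeR adjusted p = 2.04e-05), and Slco1a1, an uptake transporter for organic anions, at 217, 120.4 and 159.9 CPM in the scramble and 495, 544 and 679.9 CPM in the hairpin livers (1.81 ± 0.19, edgeR adjusted p = 0.000159). For all of these genes each hairpin value exceeded each scramble value. Cyp2u1 was the member that fell, by 0.32 on the log2 scale (edgeR adjusted p = 0.0418), a call lost in 8 alternative settings, among them without any one of scramble replicates 1, 2 and 3 and without hairpin replicate 2 or 3.

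Of 17 listed female-biased genes 10 could be tested, of which 3 fell and 2 rose. Cyp2b9, a cytochrome P450 of female liver, stood at 38.4, 47.4 and 44.6 CPM in the scramble and 1.15, 0.158 and 0 CPM in the hairpin livers (-6.69 ± 0.42, edgeR adjusted p = 7.65e-06). Its relative Cyp2b13 held 117 counts over the scramble libraries and 0 over the hairpin libraries and did not pass the filter. Cyp17a1, a steroid hydroxylase, stood at 55.2, 44.2 and 50.2 CPM in the scramble and 16.8, 29.6 and 20.7 CPM in the hairpin livers (-1.13 ± 0.17, edgeR adjusted p = 0.00115). The count of lowered members was 5 or 6 in 6 alternative settings, among them without hairpin replicate 1 or 2. The 2 members that rose, Fmo2 and Acot3, were 1 or 0 in 8 settings, among them without scramble replicate 2 or 3 and without hairpin replicate 2 or 3.

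**Figure D3:**
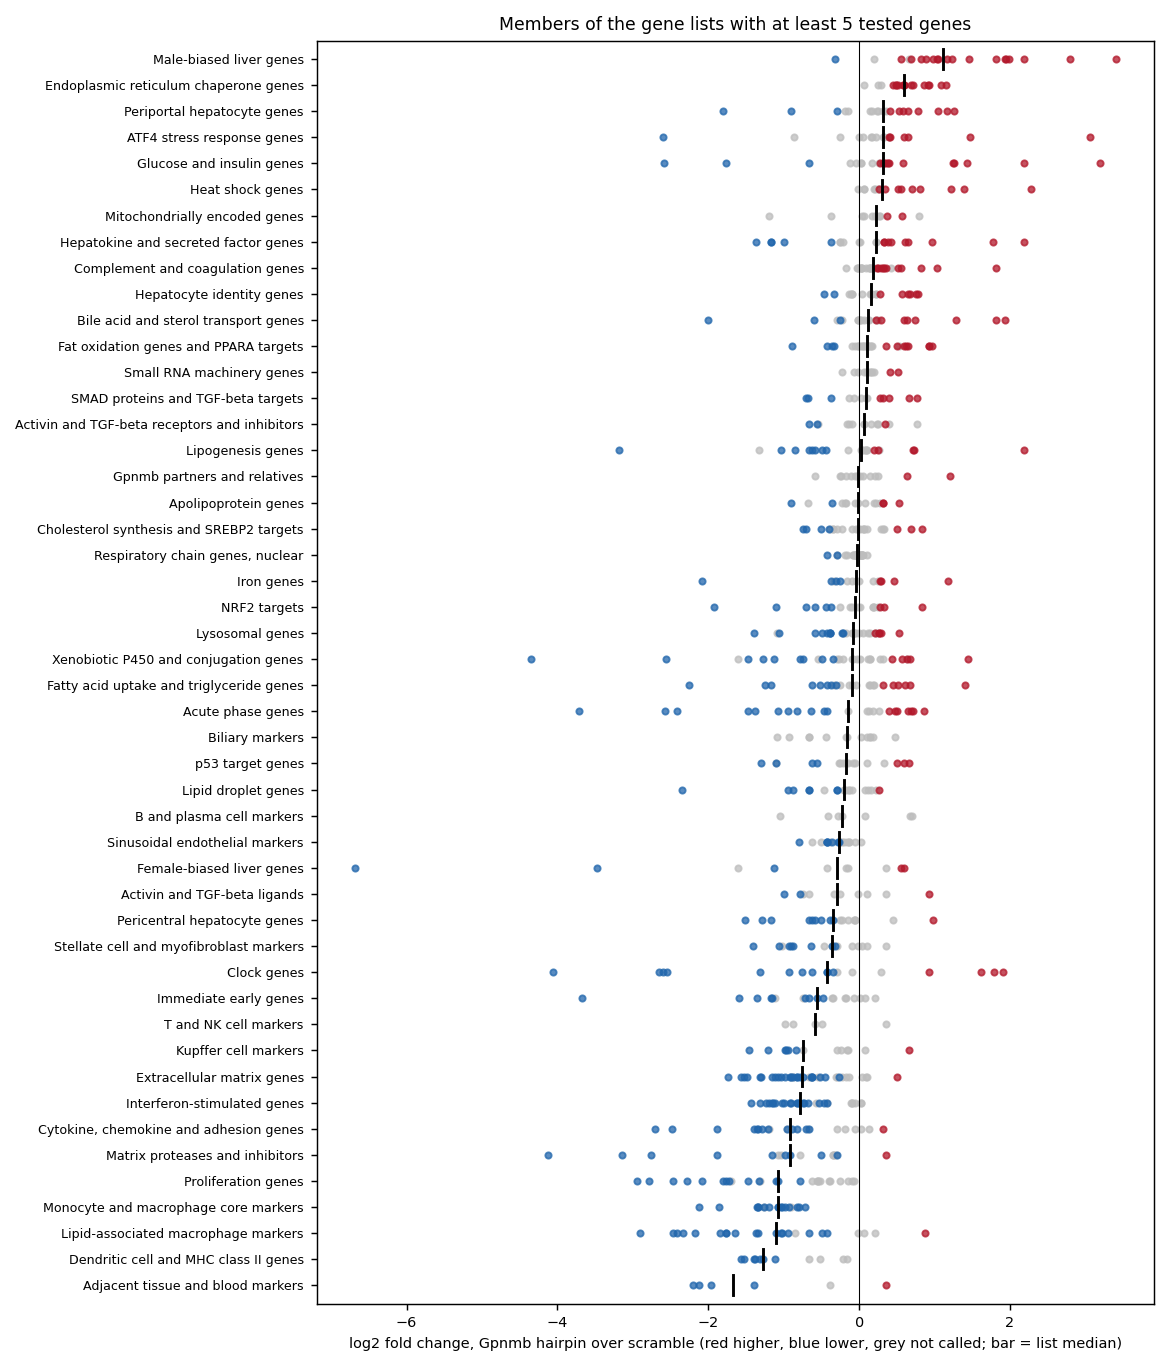
Log2 fold change of hairpin over scramble for each tested member of the gene lists with at least 5 tested genes (1 point per gene, red called higher, blue called lower, grey not called, black bar the list median). Lists are ordered by their medians, from blood and macrophage lists below 0 at the bottom to endoplasmic reticulum chaperones (0.59) and male-biased genes (1.11) at the top.

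Of 21 genes of glucose handling and insulin response 12 rose and 3 fell, with a median of 0.31. Of the 21, 5 were at least 2-fold higher and 2 at least 2-fold lower. Lepr, the leptin receptor, stood at 16.1, 14.0 and 15.7 CPM in the scramble and 109, 179 and 123 CPM in the hairpin livers (3.19 ± 0.17, edgeR adjusted p = 4.8e-06). Igfbp1, a binding protein of insulin-like growth factors that rises in fasting, stood at 48.8, 65.6 and 60.2 CPM in the scramble and 316, 219.6 and 246 CPM in the hairpin livers (2.19 ± 0.14, edgeR adjusted p = 1.08e-05). Lepr and Igfbp1 were higher in each hairpin library than in any scramble library. Irs2, an adaptor of the insulin receptor, changed by 1.43 ± 0.09, and the gluconeogenic genes Pck1 and G6pc by 1.26 ± 0.12 and 1.25 ± 0.13. Pck1, among the abundant genes, stood at 2277, 1777 and 2005 CPM in the scramble and 4175, 4785 and 5289 CPM in the hairpin livers (edgeR adjusted p = 8.58e-05). Slc2a2, the glucose transporter of hepatocytes, fell by 0.66 on the log2 scale, and Gys2, glycogen synthase, was not called (-0.04 ± 0.07). The count of 12 was 7 without scramble replicate 2 or 3 and 6 in the fit of all 15 libraries.

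Lipogenic genes, which insulin and carbohydrate also govern, split. Of 22, 8 fell and 5 rose (median 0.03). Thrsp, a carbohydrate-responsive lipogenic regulator, stood at 162, 141 and 151 CPM in the scramble and 18.0, 11.9 and 19.5 CPM in the hairpin livers (-3.18 ± 0.15, edgeR adjusted p = 2.52e-06), without overlap. Srebf1, the transcription factor gene of lipogenesis, changed by -0.85 ± 0.17 and Fasn, fatty acid synthase, by -0.66 ± 0.09 (adjusted p = 0.414 in the fit of all 15 libraries). Scd1, the stearoyl-CoA desaturase and among the most abundant transcripts of these livers, stood at 33702, 33934 and 33830.0 CPM in the scramble and 27273, 18422 and 19127 CPM in the hairpin livers (-0.62 ± 0.15, edgeR adjusted p = 0.0114, but 0.139 in the fit of all 15 libraries and also lost without scramble replicate 3). Acly, Acaca and Elovl6 were not called (0.09 ± 0.07, -0.15 ± 0.08 and 0.09 ± 0.07). Acacb, the acetyl-CoA carboxylase that checks fat oxidation, rose (0.72 ± 0.07, edgeR adjusted p = 0.000147), beside Elovl3 above. The 5 higher members were 3 without scramble replicate 2 or 3 and without hairpin replicate 2, and the 8 lower members were 3 in the fit of all 15 libraries.

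Of 19 tested lipid droplet genes 7 fell and 1 rose (median -0.20). Cidec, a protein that fuses lipid droplets in fatty liver, stood at 192, 238 and 219 CPM in the scramble and 137, 158 and 109 CPM in the hairpin livers (-0.66 ± 0.12, edgeR adjusted p = 0.00397). G0s2, an inhibitor of the fat lipase, changed by -0.94 ± 0.17, with an adjusted p of 0.0616 in the fit of all 15 libraries, and Fitm1 by -0.88 ± 0.10. Plin2, which coats lipid droplets, was not called (0.08 ± 0.11), and the call of Pnpla2, the lipase gene that rose (0.26 ± 0.08), was lost in 10 of 14 settings, among them without each library but hairpin replicate 3. Among 23 genes of fatty acid uptake and triglyceride synthesis 8 fell and 6 rose. The fatty acid carrier Cd36 stood at 366, 377 and 374 CPM in the scramble and 255, 227 and 234 CPM in the hairpin livers (-0.62 ± 0.07, edgeR adjusted p = 0.000263, but 0.0763 in the fit of all 15 libraries). Mogat1 changed by -2.26 ± 0.26 and Vldlr, a lipoprotein receptor, by -1.25 ± 0.16. Mttp, which loads fat onto lipoproteins, rose (0.45 ± 0.07), as did Lpin1 (1.41 ± 0.27). In the fit of all 15 libraries 4 were called lower and 3 higher.

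Of 28 fat oxidation genes and targets of the fatty acid sensor PPARA, 8 rose and 4 fell (median 0.11). The omega-hydroxylase genes Cyp4a14 and Cyp4a10 were higher: Cyp4a14 stood at 2687, 1915 and 2259 CPM in the scramble and 3945, 5164 and 4155 CPM in the hairpin livers (0.97 ± 0.14, edgeR adjusted p = 0.000802). Ppargc1a, a coactivator induced in fasting, changed by 0.93 ± 0.16. The core enzymes Cpt1a, Hadha and Acadl were not called, with log2 fold changes of -0.01 to 0.15. Ucp2, a mitochondrial carrier abundant in macrophages, fell (-0.89 ± 0.13, edgeR adjusted p = 0.00115). In the fit of all 15 libraries 1 member was called in each direction, and Cyp4a14 and Cyp4a10 had adjusted p of 0.395 and 0.229.

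Clock genes, whose transcripts rise and fall over the day, differed between the groups. The liver clock is a loop in which Clock or Npas2 pairs with the product of Arntl (BMAL1) on E-box motifs to switch on Per and Cry genes, which then repress them. Of 18 members 11 fell and 4 rose (median -0.43). Per3 stood at 40.5, 48.9 and 44.4 CPM in the scramble and 6.24, 6.47 and 8.92 CPM in the hairpin livers (-2.60 ± 0.14, edgeR adjusted p = 4.8e-06) and Per2 at 42.2, 39.9 and 39.5 CPM in the scramble and 16.2, 17.1 and 14.6 CPM in the hairpin livers (-1.32 ± 0.09, edgeR adjusted p = 1.15e-05). Ciart, a repressor of the loop, was at 21.0, 12.3 and 16.4 CPM in the scramble and 0, 0.526 and 2.33 CPM in the hairpin livers (-4.06 ± 0.56, edgeR adjusted p = 0.000728). Dbp, an output gene of the clock, stood at 103, 121 and 109 CPM in the scramble and 11.9, 11.7 and 28.2 CPM in the hairpin livers (-2.66 ± 0.27, edgeR adjusted p = 0.000131). All of these were lower in each hairpin library than in any scramble library.

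The members that rose were Arntl, Npas2, Clock and Nfil3. Arntl stood at 6.00, 4.63 and 5.70 CPM in the scramble and 21.4, 21.4 and 12.9 CPM in the hairpin livers (1.79 ± 0.20, edgeR adjusted p = 0.000227). Npas2 stood at 2.38, 1.5 and 1.19 CPM in the scramble and 6.60, 6.79 and 5.35 CPM in the hairpin livers (1.91 ± 0.27, edgeR adjusted p = 0.000802). Nfil3, a repressor of Dbp targets, stood at 12.9, 11.2 and 12.1 CPM in the scramble and 35.0, 37.4 and 36.8 CPM in the hairpin livers (1.61 ± 0.09, edgeR adjusted p = 5.37e-06), without overlap. Nr1d1 and Cry1 were not called (-0.10 ± 0.11 and 0.29 ± 0.19). In the fit of all 15 libraries 7 members were called lower rather than 11. On the NASH diet against chow no clock gene was called in 18 tested. Usp2, a deubiquitinase with a daily rhythm in liver and among the genes with the smallest p, stood at 48.9, 42.1 and 41.8 CPM in the scramble and 6.54, 9.21 and 9.47 CPM in the hairpin livers (-2.37 ± 0.13, edgeR adjusted p = 5.4e-06). The sources used here give neither the hour of collection nor the feeding state of the mice. Clock genes and the feeding-responsive genes Thrsp, Igfbp1, Pck1 and Irs2 differed between the same libraries as the other gene groups, and their part in those differences was not tested.

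Promoters of 3 clock genes are shown as examples of motifs of the loop in genes that fell (Ciart and Bhlhe41) and rose (Arntl). The motifs and genes were chosen after their values were seen. The windows are RefSeq sequence of GRCm38.p6, from 250 bases before to 50 after an annotated start, and the capitals mark the motif. For a gene with more than 1 window, the window with the most matches is shown. Ciart (chr3:95882179-95882478, minus strand) holds the E-box CACGTG 3 times, at 116, 58 and 44 bases before the start. Bhlhe41 (chr6:145865371-145865670, minus strand), a repressor of the loop (-2.55 ± 0.28), holds it once, at 153 bases before the start. Arntl (chr7:113207261-113207560, plus strand) holds the response element of ROR and REV-ERB receptors, searched as AANTN followed directly by GGTCA, 27 bases after the start.
Ciart: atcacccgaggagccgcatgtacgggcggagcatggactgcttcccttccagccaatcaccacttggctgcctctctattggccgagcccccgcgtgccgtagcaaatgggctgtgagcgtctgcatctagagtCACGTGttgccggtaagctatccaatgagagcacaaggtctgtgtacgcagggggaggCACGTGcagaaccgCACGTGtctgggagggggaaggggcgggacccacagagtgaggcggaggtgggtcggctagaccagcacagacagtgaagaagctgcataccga
Bhlhe41: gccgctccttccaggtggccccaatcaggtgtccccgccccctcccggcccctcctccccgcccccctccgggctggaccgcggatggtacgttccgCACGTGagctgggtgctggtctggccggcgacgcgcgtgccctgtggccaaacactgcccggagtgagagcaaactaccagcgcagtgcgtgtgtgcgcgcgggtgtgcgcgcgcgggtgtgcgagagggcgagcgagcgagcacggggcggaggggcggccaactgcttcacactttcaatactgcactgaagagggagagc
Arntl: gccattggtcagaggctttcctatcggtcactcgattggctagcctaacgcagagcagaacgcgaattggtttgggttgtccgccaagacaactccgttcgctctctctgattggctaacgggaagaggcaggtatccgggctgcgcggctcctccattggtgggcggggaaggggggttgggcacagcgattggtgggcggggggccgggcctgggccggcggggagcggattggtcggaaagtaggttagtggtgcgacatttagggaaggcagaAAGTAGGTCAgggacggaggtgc
Both strands were searched. Of all 32851 windows of this length, 7.15% held the E-box. A gene with several annotated starts has several windows and was counted if any of them matched. Shares of genes and shares of windows are therefore unlike measures. Of 15 clock genes with a window, 5 held the E-box (Bhlhe41, Ciart, Cry1, Per1 and Tef). Cry1 among these was not called, and the windows of the lowered Per3 and Dbp held no E-box. Arntl alone of the 15 held the other element, found in 0.606% of all windows, and Clock, Npas2 and Nfil3, which also rose, did not. A match is a description of the sequence and not evidence of binding.

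**Figure D4:**
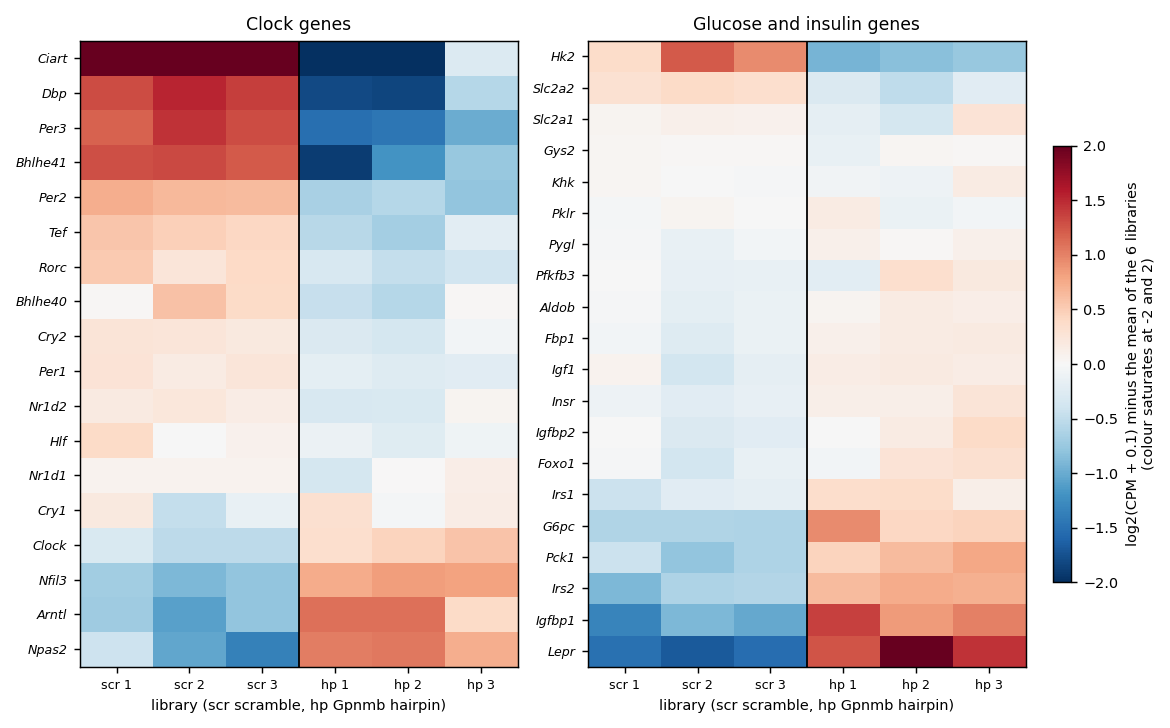
Clock genes (left) and glucose and insulin genes (right, 1 member left out) in the 3 scramble and 3 hairpin libraries. Colour gives log2(CPM + 0.1) of a library minus the mean of the 6 libraries and saturates at -2 and 2. Ciart, Dbp and Per3 are high in the scramble columns, and Arntl, Npas2, Igfbp1 and Lepr in the hairpin columns.

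Bile acid genes differed at the entry to the pathway. Cyp7a1, the rate-limiting enzyme of bile acid synthesis, stood at 478, 384 and 425 CPM in the scramble and 182, 91.3 and 41.6 CPM in the hairpin livers (-2.01 ± 0.38, edgeR adjusted p = 0.00411). Nr0b2, which encodes SHP, the repressor of Cyp7a1, stood at 33.1, 20.5 and 27.2 CPM in the scramble and 45.9, 73.0 and 74.4 CPM in the hairpin livers (1.28 ± 0.19, edgeR adjusted p = 0.00123). Cyp7a1 was lower and Nr0b2 higher in each hairpin library than in any scramble library. Of 23 tested bile acid and sterol transport genes 8 rose and 3 fell (median 0.12), the sterol exporters Abcg5 (0.74 ± 0.15) and Abcg8 (0.64 ± 0.14) among those that rose. The export pump Abcb11 was not called (0.12 ± 0.10). The 3 lower members were 1 without scramble replicate 1 or hairpin replicate 2 and in the fit of all 15 libraries, where 5 were higher.

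Of 23 tested cholesterol synthesis genes and SREBP2 targets 4 fell and 3 rose (median -0.01). Among all genes tested 12% were lower and 12.2% higher. Cyp51, a demethylase of the pathway, stood at 16.7, 21.3 and 19.5 CPM in the scramble and 33.3, 35.6 and 32.5 CPM in the hairpin livers (0.84 ± 0.10, edgeR adjusted p = 0.000351). Hmgcs1, an early step that SREBP2 governs, was not called (0.07 ± 0.09). With library size alone 8 members were lower, and in the fit of all 15 libraries 1. Among 15 apolipoprotein genes 3 rose and 2 fell, beside the same shares of all genes. Of the 15, 6 were lower with library size alone, 4 were lower with no filter and 5 were higher in DESeq2. Apoa4, which rises in fatty liver, stood at 1515, 2139 and 1815 CPM in the scramble and 1065, 949 and 864 CPM in the hairpin livers (-0.90 ± 0.12, edgeR adjusted p = 0.000757). Apoe stood at 21326, 19702 and 20567 CPM in the scramble and 16121, 15698 and 15276 CPM in the hairpin livers (-0.36 ± 0.09, edgeR adjusted p = 0.0151, but 0.10 in the fit of all 15 libraries and also lost without scramble replicate 3). The 3 higher members were 1 without scramble replicate 2 or 3 and none in the fit of all 15 libraries.

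Zonation genes, which mark hepatocytes by their place between portal and central vein, were tested as 2 lists. Of 17 pericentral genes 9 fell and 1 rose (median -0.34), or 2 rose without scramble replicate 1. Glul, glutamine synthetase of the innermost ring around the central vein, stood at 1664, 1401 and 1479.7 CPM in the scramble and 1013, 973 and 922 CPM in the hairpin livers (-0.62 ± 0.09, edgeR adjusted p = 0.00076). Lect2, a secreted protein, stood at 79.2, 76.8 and 81.8 CPM in the scramble and 31.3, 30.5 and 42.2 CPM in the hairpin livers (-1.17 ± 0.11, edgeR adjusted p = 0.000109). Cyp2e1, Cyp1a2 and Axin2, also pericentral, were not called (-0.07 ± 0.12, -0.06 ± 0.14 and -0.05 ± 0.15). Of 19 periportal genes 8 rose and 3 fell (median 0.31). Cps1, the entry enzyme of the urea cycle, stood at 2945, 1956 and 2372 CPM in the scramble and 4286, 5146 and 5352 CPM in the hairpin livers (1.05 ± 0.14, edgeR adjusted p = 0.000728), whereas the urea cycle genes Ass1, Arg1 and Otc were not called (0.17 ± 0.18, 0.24 ± 0.12 and 0.15 ± 0.14). Aldh1b1, a mitochondrial aldehyde dehydrogenase, fell with little spread, from 44.6, 37.8 and 40.3 CPM to 11.3, 10.9 and 12.3 CPM (-1.81 ± 0.10, edgeR adjusted p = 5.37e-06). The 8 periportal genes were 5 without scramble replicate 2 or 3 and in the fit of all 15 libraries, and 4 without hairpin replicate 2.

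Of 29 P450 and conjugation genes for foreign compounds 9 fell and 5 rose (median -0.10). Cyp2b10, the standard target of the receptor CAR, stood at 7.54, 2.95 and 4.79 CPM in the scramble and 0.182, 0.316 and 0.216 CPM in the hairpin livers (-4.35 ± 0.46, edgeR adjusted p = 0.000179), and the CAR gene Nr1i3 changed by -0.49 ± 0.11 (adjusted p = 0.0736 in the fit of all 15 libraries). Cyp2a22 stood at 48.9, 59.4 and 50.6 CPM in the scramble and 6.42, 10.7 and 9.19 CPM in the hairpin livers (-2.56 ± 0.15, edgeR adjusted p = 6.27e-06). Gstm2, a glutathione transferase, stood at 68.5, 77.6 and 71.1 CPM in the scramble and 28.5, 29.1 and 30.4 CPM in the hairpin livers (-1.28 ± 0.08, edgeR adjusted p = 6.27e-06). Against these, the glutathione transferase Gstp1 stood at 306, 279 and 284 CPM in the scramble and 644, 874 and 824 CPM in the hairpin livers (1.45 ± 0.11, edgeR adjusted p = 2.24e-05). Cyp3a11 was not called (-0.10 ± 0.10). The Cyp2a, Cyp2b and Gstp families hold near-identical copies, and which copy the reads come from is uncertain. The 5 higher members were 3 without scramble replicate 3 and 8 without scramble replicate 1.

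Targets of NRF2, the sensor of oxidative stress, fell in 6 and rose in 3 of 18 tested genes (median -0.06). Nqo1, a quinone reductase and classic target, stood at 12.3, 13.1 and 12.4 CPM in the scramble and 5.27, 6.10 and 5.90 CPM in the hairpin livers (-1.10 ± 0.13, edgeR adjusted p = 0.000272). Hmox1 and Txnrd1 were not called (-0.26 ± 0.19 and -0.10 ± 0.06), and Osgin1 rose (0.84 ± 0.15, edgeR adjusted p = 0.00316). The 3 higher members were 1 without scramble replicate 2, scramble replicate 3 or hairpin replicate 3, with library size alone and in the fit of all 15 libraries, where 3 members were lower.

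Chaperones of the endoplasmic reticulum, where hepatocytes fold their secreted proteins, were higher in the hairpin than in the scramble livers. Of 18 members 15 rose, none fell, and the median was 0.59. No leave-one-out fit moved this count by more than 1.5 times. In the fit of all 15 libraries several members lost their calls, Calr among them (edgeR adjusted p = 0.0919). Dnajb9, a co-chaperone, stood at 39.3, 36.1 and 34.8 CPM in the scramble and 70.3, 92.2 and 77.7 CPM in the hairpin livers (1.15 ± 0.10, edgeR adjusted p = 5.88e-05). Hspa5, which encodes BiP, the central chaperone of the compartment, stood at 355, 385 and 369.7 CPM in the scramble and 490.2, 739 and 747 CPM in the hairpin livers (0.86 ± 0.14, edgeR adjusted p = 0.00164). Hyou1 stood at 72.8, 74.6 and 73.4 CPM in the scramble and 111, 184 and 166 CPM in the hairpin livers (1.09 ± 0.15, edgeR adjusted p = 0.000676), and Xbp1, a transcription factor gene of this response, was not called (0.25 ± 0.09). The hairpin values of these genes lay above the scramble values. Summed over the list, levels were 2794 to 2903 CPM in the scramble and 3385 to 4592 CPM in the hairpin livers. GFP livers on the same diet stood at 3426 to 5771 CPM, which overlaps the hairpin and not the scramble range. The difference of the list between scramble and GFP livers was not tested. The same list, in GFP livers, fell in 9 of 18 genes on the NASH diet against chow and rose in none.

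Promoters of 2 chaperone genes are shown because members of this list carry the endoplasmic reticulum stress element, CCAAT and CCACG with 9 bases between them, to which ATF6 and the factor NF-Y bind. The element and genes were chosen after the values were seen, and the windows are of the same kind as above. Hspa5 (chr2:34771840-34772139, plus strand) holds it with its first base 65 bases before the start. Creld2 (chr15:88819396-88819695, plus strand), a protein of the same compartment (0.91 ± 0.16), holds it on the opposite strand, 126 bases before the start, with capitals marking the match.
Hspa5: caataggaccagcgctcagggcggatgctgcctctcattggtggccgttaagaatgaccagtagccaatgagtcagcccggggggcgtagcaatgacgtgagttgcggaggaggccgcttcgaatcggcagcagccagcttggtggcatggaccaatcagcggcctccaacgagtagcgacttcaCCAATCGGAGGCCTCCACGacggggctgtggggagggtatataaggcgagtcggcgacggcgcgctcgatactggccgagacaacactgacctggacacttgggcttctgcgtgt
Creld2: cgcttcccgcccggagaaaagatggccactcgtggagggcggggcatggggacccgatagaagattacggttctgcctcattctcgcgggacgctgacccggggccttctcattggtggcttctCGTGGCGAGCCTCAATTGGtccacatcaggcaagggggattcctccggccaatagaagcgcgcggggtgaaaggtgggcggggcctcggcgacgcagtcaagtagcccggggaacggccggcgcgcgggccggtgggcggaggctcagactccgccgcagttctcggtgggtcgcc
Of 16 list members with a window, 8 held the element on either strand in at least 1 of their windows (Calr, Canx, Creld2, Dnajc3, Hsp90b1, Hspa5, Pdia6 and Syvn1). Of all 32851 windows 0.119% held it, which is a share of windows and not of genes. The match does not show which factor acted in these livers.

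Heat shock genes of the cytosol and mitochondria rose in 9 of 16 members and fell in none (median 0.30). Of all genes tested 12.2% were higher. The list summed to 3417 to 3534 CPM in the scramble and 3782 to 5236 CPM in the hairpin livers. In GFP livers on the same diet it summed to 4352 to 5331 CPM, and their difference from the scramble livers was not tested. Hspa1b, the inducible HSP70 gene, stood at 11.9, 19.0 and 15.6 CPM in the scramble and 58.3, 119 and 43.5 CPM in the hairpin livers (2.28 ± 0.32, edgeR adjusted p = 0.000816), where reads of its near-identical copy Hspa1a may be shared. Hspa8, the constitutive relative, stood at 749, 855 and 789.9 CPM in the scramble and 1004, 1547 and 1270.2 CPM in the hairpin livers (0.70 ± 0.13, edgeR adjusted p = 0.00399). Without scramble replicate 1 or 2 the count was 5, and without scramble replicate 3 or hairpin replicate 2 it was 4. In the fit of all 15 libraries it was 4 and with library size alone 5. Among 17 tested genes of the ATF4 response to amino acid shortage 6 rose and 1 fell (median 0.31, but 0.07 without hairpin replicate 3). Asns, asparagine synthetase, stood at 0.794, 2.03 and 1.31 CPM in the scramble and 12.1, 12.3 and 9.57 CPM in the hairpin livers (3.06 ± 0.27, edgeR adjusted p = 6.66e-05). Atf3, a stress-induced transcription factor, stood at 5.25, 6.79 and 7.76 CPM in the scramble and 1.82, 0.631 and 0.811 CPM in the hairpin livers (-2.60 ± 0.34, edgeR adjusted p = 0.000575). Other targets, Trib3, Psat1 and Ddit3, were not called (0.22 ± 0.24, 0.16 ± 0.30 and 0.40 ± 0.17). The 6 higher members were 3 without scramble replicate 2 or hairpin replicate 3 and 2 without scramble replicate 3.

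Proliferation transcripts were lower. Of 26 genes 13 fell and none rose, with a median of -1.08. Ccnd1, cyclin D1, which opens the cell cycle, stood at 43.7, 83.5 and 65.2 CPM in the scramble and 22.7, 17.9 and 13.4 CPM in the hairpin livers (-1.81 ± 0.23, edgeR adjusted p = 0.000469). Mki67, which marks cycling cells, stood at 7.32, 10.5 and 8.24 CPM in the scramble and 2.54, 2.74 and 2.22 CPM in the hairpin livers (-1.77 ± 0.20, edgeR adjusted p = 0.000238). Both were without overlap. The mitotic cyclin Ccnb2 changed by -2.08 ± 0.34, while the replication genes Pcna, Mcm4 and Mcm6 were not called (-0.07 ± 0.11, -0.26 ± 0.15 and -0.55 ± 0.21). Most members are low in adult liver, and the list summed to 144 to 208 CPM in the scramble and 83.0 to 93.5 CPM in the hairpin livers. Without scramble replicate 2 or 3 the count was 8, and at a minimum count of 50, which leaves fewer members, it was 6 with a median of -0.58.

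Immediate early genes, which respond within minutes to stimuli and to tissue handling, fell in 9 of 19 members and rose in none (median -0.56). Fos stood at 14.2, 12.7 and 17.0 CPM in the scramble and 6.91, 4.79 and 7.63 CPM in the hairpin livers (-1.17 ± 0.18, edgeR adjusted p = 0.00142) and Klf6 changed by -1.15 ± 0.15. Egr1, Junb, Dusp1 and Ier2 were not called (-0.19 ± 0.38, -0.18 ± 0.11, -0.07 ± 0.11 and 0.01 ± 0.10). The count was 5 without scramble replicate 2 or 3 and 4 in the fit of all 15 libraries. Of 17 p53 targets 3 rose and 4 fell, beside 12.2% higher and 12% lower among all genes tested. No p53 target was called without scramble replicate 2 or without scramble replicate 3. The 4 lower members were 1 without hairpin replicate 1 or 2, and the 3 higher members 1 without scramble replicate 1 or hairpin replicate 2.

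Lysosomal genes fell in 10 and rose in 5 of 31 members (median -0.08). Ctss, cathepsin S of macrophages and dendritic cells, stood at 62.0, 69.6 and 62.9 CPM in the scramble and 30.9, 33.0 and 27.5 CPM in the hairpin livers (-1.06 ± 0.09, edgeR adjusted p = 3.81e-05). Ctsd, cathepsin D, changed by -0.49 ± 0.07. Ctsc, cathepsin C, rose (0.53 ± 0.08, edgeR adjusted p = 0.00121). The proton pump subunit Atp6v0d1 was not called (0.14 ± 0.07). The 5 higher members were 1 to 3 without each of the 6 libraries in turn.

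Nuclear genes of the respiratory chain fell in 2 of 27 members and rose in none (median -0.03). Both shares are smaller than the 12% lower and 12.2% higher among all genes tested. The count of 2 was 1 without scramble replicate 3, 5 with library size alone and 0 in the fit of all 15 libraries. Of 12 tested mitochondrially encoded genes mt-Nd1 (0.37 ± 0.09) and mt-Nd2 (0.57 ± 0.11) rose. Without scramble replicate 1, 5 were called higher, without scramble replicate 3 only 1, and mt-Nd1 lost its call there and in the fit of all 15 libraries (adjusted p = 0.11). In each of 2 settings, without scramble replicate 3 and with no filter, 1 member was called lower. Mitochondrial ribosomal RNA, given above, was higher in the same libraries. Genes of the small RNA machinery, which hairpins also use, rose in 2 of 13 members, near the 12.2% of all genes tested that were higher. These were Ago1 (0.41 ± 0.11) and Dgcr8 (0.52 ± 0.15), and neither was called with library size alone or in the fit of all 15 libraries. Leaving out a library left 0 or 1 of them in 5 of the 6 cases (scramble replicates 1, 2 and 3 and hairpin replicates 2 and 3). Dicer1, Ago2, Drosha and Xpo5 were not called (0.20 ± 0.08, 0.11 ± 0.07, -0.07 ± 0.12 and 0.16 ± 0.08).

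Of 15 iron genes 4 rose and 4 fell (median -0.04). Hamp, hepcidin, the hormone that blocks iron export, was not called (0.00 ± 0.25). Atoh8, a transcription factor that responds to bone morphogenetic proteins in liver, stood at 20.1, 20.1 and 18.6 CPM in the scramble and 32.8, 50.2 and 48.0 CPM in the hairpin livers (1.18 ± 0.14, edgeR adjusted p = 0.000311). Of 21 hepatokines and other secreted factors 9 rose and 5 fell (median 0.22). Fgl1 stood at 126, 118 and 122 CPM in the scramble and 224, 230.3 and 249 CPM in the hairpin livers (0.97 ± 0.07, edgeR adjusted p = 1.62e-05). Tsku, tsukushi, stood at 169, 135 and 158 CPM in the scramble and 69.6, 68.0 and 38.7 CPM in the hairpin livers (-1.37 ± 0.18, edgeR adjusted p = 0.000644). Fgf21, a hormone of fasting and stress, rose with overlapping values (0.65 ± 0.18, edgeR adjusted p = 0.022) and lost its call in 6 settings, among them without scramble replicate 1 or 3 and without hairpin replicate 1 or 2. The higher iron genes were 1 without scramble replicate 2 or 3, the lower ones 2 without scramble replicate 1 or 3 or hairpin replicate 2, and the higher hepatokines 5 without scramble replicate 3 or hairpin replicate 2. Globin genes were lower, as Hbb-bs at 51.2, 31.7 and 37.4 CPM in the scramble and 15.5, 6.52 and 8.71 CPM in the hairpin livers (-1.96 ± 0.27, edgeR adjusted p = 0.00073), and Pnlip, Adipoq, Retn, Ckm, Acta1 and Myh1, markers of pancreas, fat and muscle, did not pass the filter on low counts.

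The genes that differed under the hairpin were also followed in the diet comparison, GFP livers on the NASH diet against GFP livers on chow, which shares no library with it. There 1607 of 14388 genes (11.2%) were higher and 838 (5.82%) lower on the diet. Over 14127 genes tested in both, 744 were lower under the hairpin and higher on the diet, which is 42.8% of the genes lower under the hairpin and 47.0% of the genes higher on the diet. In the opposite quadrant 246 genes were higher under the hairpin and lower on the diet, 13.7% and 30.6% of the respective lists. Calls in the same direction numbered 70 higher in both and 53 lower in both. Without scramble replicate 2 the count of 744 was 472 and without scramble replicate 3 it was 482, and the counts of 246, 70 and 53 were 152, 43 and 32 without scramble replicate 3. In the fit of all 15 libraries these 3 counts were 150, 31 and 34, and with library size alone the 70 and 53 were 42 and 97.

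The lists described above were also counted on the diet. On the diet 18 of 24 tested lipid-associated macrophage markers, 17 of 17 core macrophage markers and 30 of 38 matrix genes rose. Trem2 changed by 3.86 ± 0.28 on the diet and -2.33 ± 0.25 under the hairpin, and Col1a1 by 2.65 ± 0.27 and -1.74 ± 0.23. Cidec changed by 4.76 ± 0.24 on the diet. Male-biased genes went the other way, with 16 of 20 lower on the diet, and Serpina1e changed by -4.43 ± 0.24. Mean levels of Serpina1e, Lyz2 and Col1a1 in the hairpin livers lay between those of scramble and chow livers, as the plot of levels by library shows. Some genes moved in the same direction in both comparisons: Lepr changed by 3.40 ± 0.34 on the diet, Igfbp1 by 1.59 ± 0.23 and Cyp4a14 by 4.15 ± 1.00. Per3 (0.35 ± 0.33) and Cyp7a1 (-0.03 ± 0.30) were not called on the diet.

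**Figure D5:**
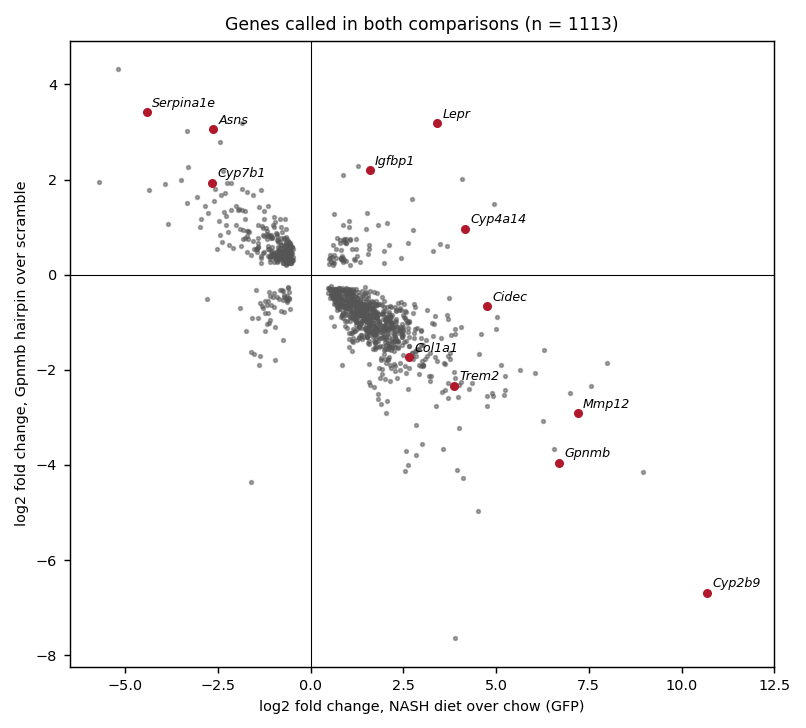
Log2 fold change of hairpin over scramble (vertical axis) against that of NASH diet over chow in GFP livers (horizontal axis) for the 1113 genes called in both comparisons, 1 point per gene, with named genes in red. Most points, 744, lie at lower right (lower under the hairpin, higher on the diet) and 246 at upper left.

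In the Activin A comparison, Activin A livers against GFP livers on the NASH diet, 242 of 14598 genes (1.66%) were higher and 564 (3.86%) lower. It shares no library with the hairpin comparison. Over 14239 genes tested in both, 322 were lower in both, which is 18.3% of the genes lower under the hairpin and 58.1% of the genes lower under Activin A. Another 46 genes were higher in both, 2.57% and 20.2% of the lists, while 38 were higher under the hairpin and lower under Activin A and 46 the reverse. Without scramble replicate 2 or 3, 30 genes were higher in both, and without scramble replicate 3 the 38 were 23. Gpnmb changed by -2.93 ± 0.27 under Activin A, Trem2 by -1.88 ± 0.35, Clec7a by -2.10 ± 0.18 and Ccr2 by -1.39 ± 0.17. Of 20 male-biased genes, 3 rose and 8 fell under Activin A (median -0.65). Serpina1e changed by 1.23 ± 0.16, against -1.07 ± 0.25 for Mup3, -0.79 ± 0.10 for Mup20 and -2.72 ± 0.52 for Slco1a1. Inhba, the gene of the Activin A subunit, changed by 1.63 ± 0.11. Thrsp and Per3 were not called under Activin A (1.02 ± 0.70 and 0.57 ± 0.27).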

How the data were processed

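Poly(A) RNA of whole liver was sequenced from 15 libraries in 5 groups of 3, with column-purified RNA and stranded TruSeq libraries, per the labels' protocols. The files hold raw read counts per gene that the authors deposited in 3 tables, with their own log2 fold changes and adjusted p-values beside them. Per the submitters' processing notes the builds were GRCm38 and mm10. No aligner, counter or strand setting is named in the sources used here. The hairpin table lists 24671 genes, in which 22 symbols turned into dates by a spreadsheet were restored.

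Counts were tested with edgeR 4.0.16 (R 4.3.3) on the 6 hairpin and scramble libraries: filterByExpr with a minimum count of 10, TMM scaling, a quasi-likelihood F-test and Benjamini-Hochberg adjustment over all genes tested, with calls at an adjusted p under 0.05. The standard error is the log2 fold change over the root of F. CPM values were scaled with TMM over all 15 libraries. Log2 fold changes are hairpin minus scramble. The script was tested on simulated counts. Alternatives were DESeq2 1.42.0, limma-voom 3.58.1, other scalings and filters, a fit of all 15 libraries, a replicate block and leaving out each library. Replicates differed by more than counting noise (lowest chi-square over its degrees of freedom 6.79).

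The groups, the lists and the tests were chosen with earlier results of these data known. Genes named are Gpnmb, the 10 highest and 10 lowest called fold changes among genes at a mean log2 CPM of 1 or more, the 6 of each direction with the smallest p, the 6 most abundant called genes of each direction, up to 4 called members per list by p, up to 2 called members against a list's direction, and up to 3 long noncoding genes per direction. Further names were chosen after their values were seen: Abcg5, Abcg8, Arntl, Bhlhe41, Calr, Ccl2, Ciita, Col4a1, Creld2, Csf1r, Cxcl10, Dbp, Dnajc3, Fabp4, Fasn, Fgg, G6pc, Hsp90b1, Hspa1a, Hspa5, Lgals3, Lox, Loxl1, Lpin1, Mmp12, Mttp, Npas2, Nr1i3, Pdgfrb, Pdia6, Per1, Ppargc1a, Saa1, Saa2, Srebf1, Tef, and the list members named as not called. A few genes are not reported here by name.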

Additional observations from a re-analysis of the deposited data

How the results depend on the processing

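Gpnmb kept its direction and its call in all 14 alternative settings, with a log2 fold change of -4.52 to -3.69. The count of genes called higher, 1813, was 1006 with library size alone and 835 in a fit of all 15 libraries, and the count called lower, 1788, was 1045 in that fit and 2464 with library size alone. Leaving out each library gave 929 to 1685 genes higher and 994 to 1811 lower, with the lowest counts without scramble replicate 3. The cause was not tested. Same-numbered libraries did not deviate together (r = -0.09, 0 and -0.01), so the numbers were not taken as pairs, and the fit with the replicate number as a block called 1474 genes higher and 1511 lower. The other 5 settings, with library size alone left out, gave 1573 to 1821 higher and 1669 to 2040 lower. Of 1484 recomputed counts for gene lists, 1223 stayed within 1.5 times. Among the 871 listed or named genes, mt-Co3 alone turned its sign with a call: leaving out each library gave -0.64 to 0.37, and 0.37 without scramble replicate 1 was called (edgeR adjusted p = 0.022; -0.37 and not called with all 6). Depth limits genes near the minimum of 10 counts.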

Other observations

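Some of the largest changes lay in genes outside the lists. Themis stood at 19.7, 22.2 and 20. CPM in the scramble and 1.88, 0.579 and 0.757 CPM in the hairpin livers (-4.27 ± 0.27, edgeR adjusted p = 9.66e-06). Pitx3, a homeobox gene known from lens and midbrain, stood at 2.82, 1.59 and 1.78 CPM in the scramble and 18.7, 19.4 and 17.7 CPM in the hairpin livers (3.19 ± 0.19, edgeR adjusted p = 6.27e-06). Tubb2b, a beta-tubulin gene, stood at 1.68, 6.09 and 5.78 CPM in the scramble and 0.545, 0.158 and 0.270 CPM in the hairpin livers (-3.79 ± 0.59, edgeR adjusted p = 0.00137). None of these genes overlapped between the groups. The imprinted genes Peg10, expressed from the paternal copy, and H19, a long noncoding RNA expressed from the maternal copy, moved in opposite directions. Peg10 stood at 1.5, 1.98 and 1.31 CPM in the scramble and 8.12, 9.42 and 7.09 CPM in the hairpin livers (2.39 ± 0.22, edgeR adjusted p = 8.58e-05) and H19 at 2.29, 5.29 and 3.96 CPM in the scramble and 0.666, 0.0526 and 0.270 CPM in the hairpin livers (-3.55 ± 0.56, edgeR adjusted p = 0.00149).

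Of 352 tested long intergenic noncoding genes 36 rose and 24 fell, smaller shares than the 12.2% and 12% of all genes tested. Gm34654 stood at 2.25, 2.34 and 2.18 CPM in the scramble and 10.8, 11.3 and 10.5 CPM in the hairpin livers (2.29 ± 0.16, edgeR adjusted p = 1.19e-05) and BC049987 at 10.6, 11.7 and 10.9 CPM in the scramble and 0.788, 0.947 and 1.35 CPM in the hairpin livers (-3.39 ± 0.21, edgeR adjusted p = 7.65e-06). Both mitochondrial ribosomal RNA genes and 6 of 13 tested mitochondrial transfer RNA genes were called higher, and none of these 15 genes lower. The libraries were made from poly(A) RNA, and how fully they capture these RNAs was not tested. Mitochondrial ribosomal RNA was also low in the scramble libraries beside GFP livers on the same diet, as given above. Of 380 tested antisense genes 12 rose and 18 fell, also smaller shares than over all genes, and reads of a gene and its antisense partner may be mixed, since the sources used here do not state the strand setting.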
